A study of Mus musculus with 12 samples.

Results

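The comparison described here set the hearts of mice 7 days after acute myocardial infarction (AMI) against the hearts of other mice 1 day after AMI, across all genes that could be tested. The 8 hearts, 4 for each time, are 8 of the 12 libraries of the study, and the other 4 came from sham-operated mice. All were hearts of C57BL/6N mice. AMI was produced by tying the left anterior descending coronary artery through a left thoracotomy under isoflurane. Each library was a different mouse, so the 2 times were compared between animals. RNA came from the heart without separation of infarct, border and remote muscle. Of 53801 genes in the count table, 15306 passed the filter on low counts and were tested. The sham hearts served as the reference level, and the sample titles do not say when they were taken. The comparisons with sham share the day 1 or the day 7 hearts with the comparison described here.

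After coronary occlusion, dying myocardium first draws in neutrophils and inflammatory monocytes through chemokines. The debris is then cleared by macrophages, and fibroblasts divide, become matrix-secreting myofibroblasts and replace the lost muscle with collagen scar. The surviving cardiomyocytes meanwhile take on a stressed, partly fetal pattern of gene expression.

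Levels are given as normalized CPM, counts scaled to a common library total after adjustment by trimmed mean of M values (TMM). A fold change (FC) is given on the log2 scale as day 7 over day 1, so that values above 0 are higher on day 7. Differentially expressed genes (DEGs) changed at least 2-fold, with a false discovery rate (FDR) below 0.05 in edgeR's quasi-likelihood test. Library totals ranged from 23204551 to 32166517 counts. The cardiomyocyte markers, 6 genes including Myh6 and Tnnt2, summed to between 38049 and 48247 CPM on day 1 and between 32352 and 37620 CPM on day 7, and to between 59319 and 69861 CPM in sham. The atrial markers summed to between 498 and 1284 CPM on day 1 and between 1277 and 1912 CPM on day 7, and the part of atrial tissue in the results was not tested. Whether counting used strand is not stated in the sources used here, so reads of overlapping genes cannot be told apart. Of the genes named below, Gm20431, Fosl1 and Tagln share more than 50% of their exon bases with other genes, and Hand2, Hspa1a, Spp1, Cxcl16, Cryab and Sfrp2 share between 16.1% and 19.6%. In RNA from whole tissue, fewer cells of a type and less RNA per cell cannot be told apart.

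Between day 1 and day 7, 1308 genes rose (8.55% of those tested) and 411 fell (2.69%). With no FC minimum, 3701 genes (24.2%) were higher and 3496 (22.8%) lower at an FDR below 0.05. Against sham, 7.79% of genes had risen and 2.98% had fallen on day 1, and 15.3% were higher and 5.88% lower on day 7 by the same rule as for DEGs. The larger changes were mostly increases: 348 genes rose and 76 fell by 4-fold or more, and 126 rose and 25 fell by 8-fold or more. Increases outnumbered decreases among DEGs under every normalization tried, by different margins. Of the calls 76.1% were increases, against 84.7% without TMM, where 1626 genes rose and 293 fell, and 87.1% and 89.3% in limma on log2 TPM with a pseudocount of 1 or 0.1, where 879 genes rose and 130 fell, and 1734 rose and 208 fell. The median log2 FC of all genes tested was 0.021, and it was 0.148 without TMM, 0.184 and 0.245 in those limma fits. It also moved with transcript length. With protein-coding genes divided by exon length into 10 equal classes, the shortest class had a median of -0.23 and the longest 0.14. The respiratory chain and basement membrane lists are therefore given with and without that trend.

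The genes were described in 36 lists of known function or cell type. Where a count of list members is given, the shares of all genes are 8.55% risen and 2.69% fallen. At an FDR below 0.05 with no FC minimum they are 24.2% higher and 22.8% lower. Mitosis genes, collagens and other scar matrix genes moved the most upward, with list medians of 3.00, 2.38 and 2.22. Neutrophil markers, chemokine ligands and acute cytokines had the lowest medians, of -2.32, -1.38 and -0.86. That order depended on the setting: acute cytokines were at -0.33 without day 1 heart 2 and at -0.30 with a stricter filter, and chemokine ligands at -0.51 with no filter. Between these, stress, ribosome assembly and energy metabolism lists had medians between -0.37 and -0.71, while the lists of interferon-stimulated, MHC class II and macrophage lipid-handling genes had medians between 0.65 and 1.01.

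**Figure D1:**
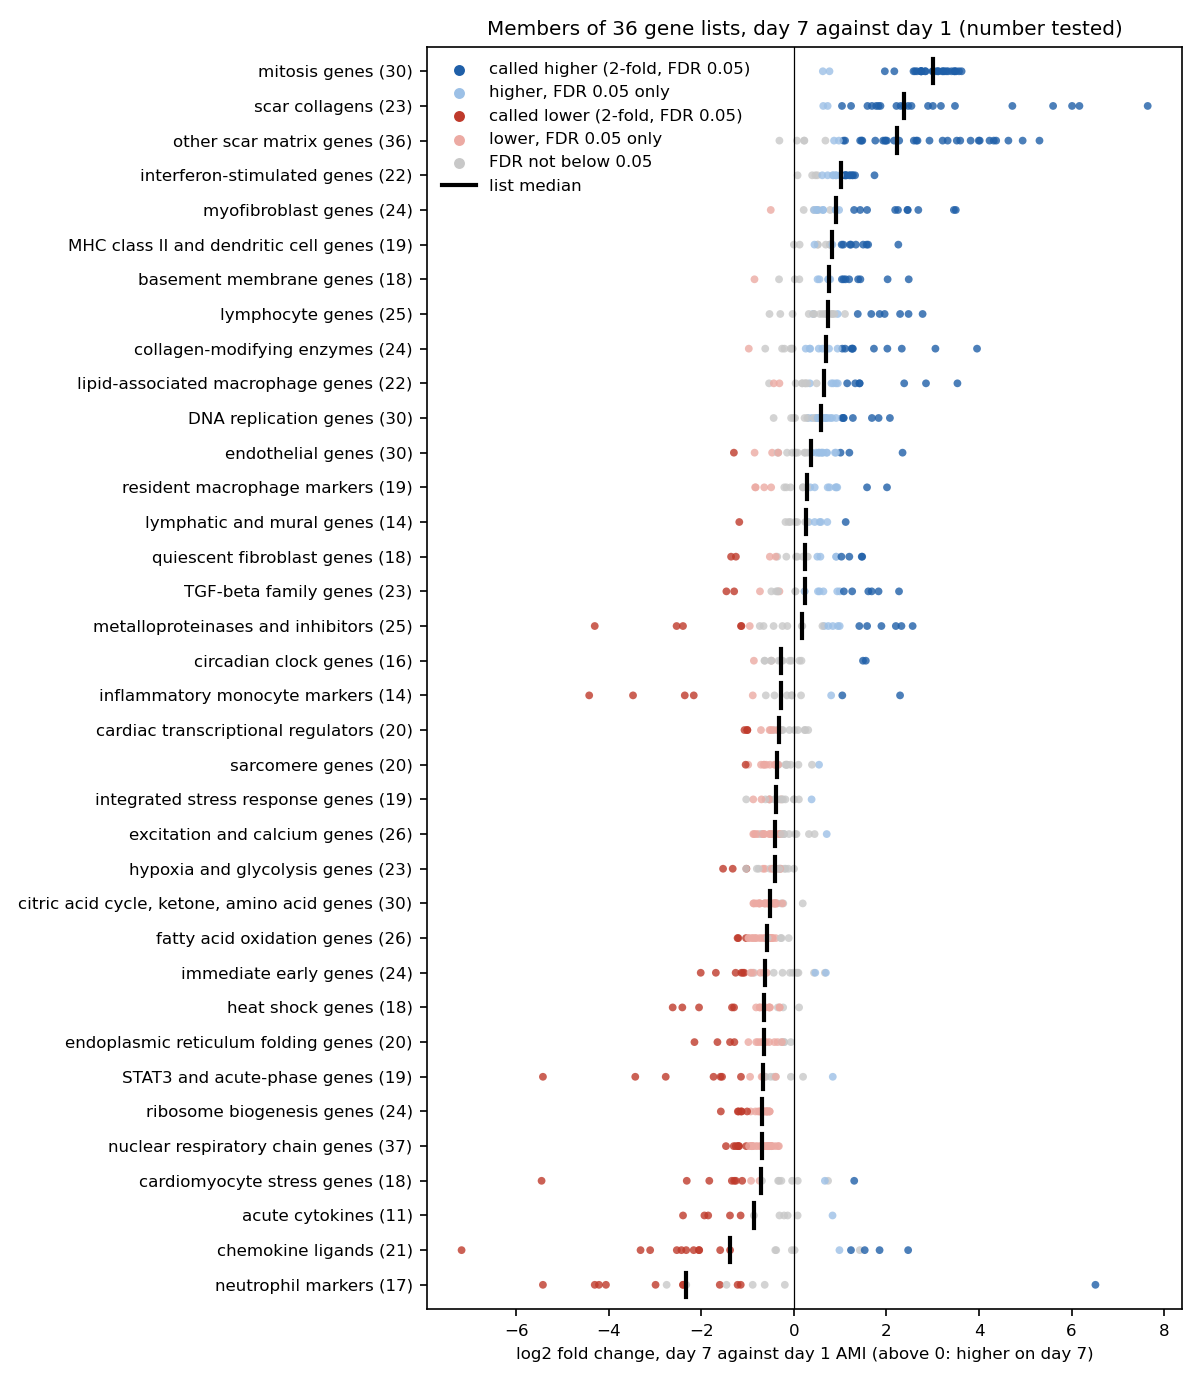
Each point is a tested gene of a list, placed by its log2 fold change from day 1 to day 7 AMI on the horizontal axis, with 1 line for each of 36 lists and the number tested in brackets. Black bars mark list medians, which ran from 3.00 for mitosis genes to -2.32 for neutrophil markers, and dark points are DEGs, blue where higher and red where lower on day 7.

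The neutrophil chemokines and the neutrophil genes resolved. Of 24 chemokine ligands 21 were tested, of which 11 fell and 4 rose, and 12 of the 21 were lower in every day 7 heart than in any day 1 heart, against 20.9% of all genes. Cxcl3, a ligand of the neutrophil receptor CXCR2 (ENSMUSG00000029379, chr5:90786103-90789600, GRCm38, + strand), was at 6.81, 8.59, 1.41 and 1.01 CPM in the day 1 hearts and at 0.0308, 0.0386, 0 and 0.034 CPM in the day 7 hearts. Day 1 hearts 1 and 2 held far more Cxcl3 than hearts 3 and 4, and each of the 4 exceeded every day 7 heart. The day 7 libraries held 3 Cxcl3 counts together against 541 on day 1, a ratio of 169.8 with a 95% counting interval of 57.8 to 826, and the fitted log2 FC was -7.18 (FDR = 4.21e-05). Cxcl2, another CXCR2 ligand, was at 4.09, 4.6, 1.41 and 0.536 CPM on day 1 and at 0.154, 0.348, 0.221 and 0.34 CPM on day 7. Its groups did not overlap either (log2 FC -3.31 with SE 0.709, FDR = 1.69e-03). Cxcl5 lay within 13.6 to 16.4 CPM in the day 1 hearts and within 0.832 to 3.81 CPM in the day 7 hearts (log2 FC -3.10, FDR = 2.48e-05), and Cxcl1 fell from 6.73 to 1.62 CPM on average. The mean of Cxcl1 on day 7 was close to its sham mean of 1.44 CPM, whereas Cxcl5 stayed above sham (log2 FC 2.36, FDR = 1.7e-03).

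The monocyte chemokines fell as well. Ccl2, the main ligand of CCR2, was at 39.7, 36, 34.1 and 21.3 CPM on day 1 and at 7.89, 4.56, 2.43 and 7.69 CPM on day 7, with every day 7 heart below every day 1 heart (log2 FC -2.53 with SE 0.436, FDR = 3.38e-04). Ccl7, a second CCR2 ligand, fell from 32.0 ± 5.41 to 5.91 ± 2.43 CPM (SD, n = 4), and the myeloid chemokines Ccl6 and Ccl9 fell by 2.16 and 1.59 on the log2 scale. The receptor Ccr2, carried by inflammatory monocytes, did not follow its ligands. It was at 33.4 ± 7.79 CPM on day 1 and 30.1 ± 12.0 CPM on day 7 (log2 FC -0.15, FDR = 0.669), in overlapping groups that both lay above every sham heart. Ccl3 and Ccl4, further myeloid chemokines, were also level between the times, at 0.991 and 0.992 CPM for Ccl3 and at 1.59 and 1.53 CPM for Ccl4. A pair of chemokines that the day 1 hearts had not raised fell below sham by day 7: Ccl11, an eosinophil attractant, was at 1.61 CPM on day 1 and 0.387 CPM on day 7, and Cxcl14, which resting fibroblasts make, was at 14.8 and 5.69 CPM, against sham means of 1.63 and 16.8 CPM.

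The 4 chemokines that rose, Cxcl9, Ccl5, Cxcl16 and Cxcl10, are ligands known for drawing lymphocytes. Cxcl9, an interferon-gamma-induced ligand of CXCR3, was at 2.71, 3.22, 3.96 and 1.83 CPM on day 1 and at 9.71, 10.7, 10.7 and 33.9 CPM on day 7 (log2 FC 2.47 with SE 0.459, FDR = 5.95e-04). The groups did not overlap, and day 7 heart 4 was far above the other day 7 hearts. Ccl5, a T cell attractant, rose from 1.27 to 4.53 CPM, and Cxcl16, which binds CXCR6, rose from 14.4 ± 1.26 to 41.6 ± 10.9 CPM. Cxcl10, the other CXCR3 ligand among the called genes, had already risen on day 1, to 4.17 CPM from 0.660 in sham, and stood at 9.80 CPM on day 7 (log2 FC 1.24, FDR = 0.0114). Without day 7 heart 4 the log2 FC was 1.82 for Cxcl9 and 0.75 for Cxcl10, and the FDR of Cxcl10 was 0.0543.

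Among 17 tested neutrophil markers of 23, 10 fell and 1 rose. The number that fell was 6 without day 1 heart 2 and 14 without day 7 heart 4. Lcn2, the granule protein lipocalin 2 (ENSMUSG00000026822, chr2:32384633-32388252, GRCm38, - strand), was at 102, 161, 121 and 132 CPM on day 1 and at 2.06, 1.27, 1.84 and 6.77 CPM on day 7. It fell by 5.42 on the log2 scale (SE 0.503, FDR = 2.19e-06) and ended below the sham mean of 8.64 CPM. Lcn2 is also an acute-phase gene of cardiomyocytes and fibroblasts, so it is not particular to neutrophils. Cxcr2, the chemokine receptor of neutrophils, fell from 6.46, 10.4, 2.81 and 7.19 CPM to 0.277, 0.193, 0.295 and 0.816 CPM. Mmp9, a gelatinase stored in neutrophil granules, fell from 22.0 ± 11.3 to 1.11 ± 0.229 CPM, and Il1r2, a decoy receptor for interleukin 1, fell from 5.20 to 0.275 CPM. None of these 3 genes overlapped between the times. S100a8, an alarmin abundant in neutrophils, was at 16.4, 36.2, 8.9 and 15.3 CPM on day 1 and at 1.42, 0.773, 1.25 and 11.8 CPM on day 7 and did not pass (log2 FC -2.32, FDR = 0.0617), with day 7 heart 4 above day 1 heart 3. Without day 7 heart 4 its log2 FC was -4.05 (FDR = 7.32e-03), and those of Lcn2, Cxcr2 and Cxcl5 were -6.21, -4.68 and -3.86. Without day 1 heart 2 that of Il1r2 was -3.49.

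Some granule genes had higher counts on day 7. Mpo and Elane, encoding myeloperoxidase and neutrophil elastase, were too low to be tested and had 56 and 13 counts on day 7 against 2 and 1 on day 1, ratios of 29.7 and 13.8 with 95% counting intervals of 7.86 to 252 and 2.07 to 587. Day 7 heart 4 held 47 of the 56 Mpo counts and 11 of the 13 Elane counts. Ngp, a granule gene of immature neutrophils, was the tested marker that rose. It was at 0, 0, 0 and 0.0631 CPM on day 1 and at 0.216, 0.425, 0.0738 and 6.94 CPM on day 7, and sham hearts 1 and 2 held 1.36 and 3.00 CPM. The day 7 libraries held 224 Ngp counts against 2 on day 1, a ratio of 118.9 with a 95% counting interval of 32.5 to 988, nearly all of them from day 7 heart 4. The increase (FDR = 0.0137) was lost without that heart (log2 FC 3.51, FDR = 0.140). The fitted log2 FC was 6.52, and 8.66 without day 1 heart 4, the only day 1 heart with any count. The summed neutrophil markers lay between 37.0 and 129 CPM on day 1, between 7.26 and 37.5 CPM on day 7 and between 2.25 and 53.6 CPM in sham.

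Acute cytokines fell in part. Of 14 listed, 11 were tested, of which 5 fell and none rose 2-fold, while 9 of the 11 had risen on day 1. Il1b, encoding interleukin 1 beta, was at 8.3, 8.21, 4.71 and 4.13 CPM on day 1 and at 2.37, 0.811, 1.14 and 2.62 CPM on day 7 (log2 FC -1.85 with SE 0.411, FDR = 2.16e-03). The groups did not overlap, and day 7 was still above the sham mean of 0.400 CPM (log2 FC 2.09, FDR = 3.5e-03). Il1rn, its natural antagonist, fell in parallel from 5.95 ± 2.11 to 1.56 ± 0.0593 CPM. The gp130 cytokines Il11, Clcf1 and Osm fell by 2.39, 1.38 and 1.15 on the log2 scale. Il6, the best known of that family, did not: it was at 1.95, 1.64, 0.785 and 0.883 CPM on day 1 and at 1.33, 0.85, 1.22 and 1.12 CPM on day 7 (log2 FC -0.21, FDR = 0.648), with overlapping groups that both lay above every sham heart. Tnf was likewise at 1.40 ± 0.343 and 1.47 ± 0.511 CPM, and Lif at 3.00 ± 1.52 and 2.4 ± 1.60 CPM.

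Genes that cytokines induce through STAT3 fell in part. Of 19 tested acute-phase and STAT3 genes of 21, 7 fell and none rose 2-fold. Lrg1, a leucine-rich glycoprotein of the acute phase, was at 161, 190, 196 and 276 CPM on day 1 and at 19.9, 19, 19.7 and 17.9 CPM on day 7, all below the sham mean of 65.7 CPM (log2 FC -3.43 with SE 0.196, FDR = 3.12e-08). Socs3, the feedback inhibitor of this pathway, fell from 39.5 to 13.2 CPM, close to the sham mean of 10.7 CPM. Timp1, an inhibitor of metalloproteinases, fell from 100 ± 32.6 to 45.4 ± 24.2 CPM but overlapped between the times and remained far above the sham mean of 2.89 CPM. Its decrease was under 2-fold without day 1 heart 2 (log2 FC -0.89) or day 7 heart 3 (log2 FC -0.93). Saa3, an acute-phase apolipoprotein, was at 0.770, 2.55 and 0.664 CPM in day 7 hearts 1 to 3 and at 31.3 CPM in heart 4, and did not pass (log2 FC 0.20, FDR = 0.878), with a log2 FC of -2.55 (FDR = 0.0124) without that heart. Among 24 immediate early genes 6 fell, including Fosl1, a FOS family member (log2 FC -2.01), Atf3 (-1.26) and Myc (-1.07). The number was 2 without day 1 heart 2, where Atf3 was at -0.94 and Myc at -0.88, and 9 without day 1 heart 4, and Myc was at -0.99 without day 1 heart 1. Egr1 was level, at 34.4 CPM on day 1 and 34.0 CPM on day 7. Fosl1 shares 57.2% of its exon bases with overlapping genes, and its counts could hold reads of those.

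Stress genes of the first day fell back. All 5 heat shock genes called, of 18 tested, fell, and 15 of the 18 were lower at an FDR below 0.05. Hspb1, encoding the small heat shock protein HSP25, was at 1016, 1376, 1104 and 676 CPM on day 1 and at 229, 185, 198 and 174 CPM on day 7, against a sham mean of 234 CPM. No day 7 heart reached the day 1 range (log2 FC -2.41 with SE 0.200, FDR = 8.25e-07). Hspb7 and Cryab, small heat shock proteins of muscle, fell from 2683 ± 331 to 1063 ± 180 CPM and from 2516 ± 568 to 1028 ± 87.2 CPM, below their sham means of 1647 and 1559 CPM. Hspa1a, the inducible HSP70, was at 28.8 and 31.7 CPM in day 1 hearts 1 and 2 but at 4.22 and 3.82 CPM in hearts 3 and 4, and between 2.16 and 3.76 CPM on day 7 (log2 FC -2.62, FDR = 2.98e-03). Hspa1a and Hspa1b are near-identical, so how reads were shared between them is uncertain.

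The heat shock promoters are shown because the list carries a known DNA element in most members: the core GAANNTTC bound by heat shock factor, searched on both strands in the RefSeq window of 250 bases before to 50 after the start, was in 10 of 14 heat shock genes with a window (71.4%), against 7.00% of tested genes with one. In the Hspb1 window (GRCm38.p6, chr5:135887669-135887968, + strand) the capitals mark the 2 matches.
Hspb1: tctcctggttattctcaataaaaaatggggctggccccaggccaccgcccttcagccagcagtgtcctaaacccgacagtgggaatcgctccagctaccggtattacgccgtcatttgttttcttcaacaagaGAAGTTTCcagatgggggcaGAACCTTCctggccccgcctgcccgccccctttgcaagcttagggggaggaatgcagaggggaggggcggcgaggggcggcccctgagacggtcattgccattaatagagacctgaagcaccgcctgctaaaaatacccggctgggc

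Genes for protein folding in the endoplasmic reticulum followed the same course. Of 20 tested, 4 fell 2-fold, 16 were lower at an FDR below 0.05 and none was higher. Sdf2l1, a cochaperone, was at 26.2, 22.5, 24.7 and 33.7 CPM on day 1 and at 10.1, 3.63, 4.39 and 5.88 CPM on day 7, near the sham mean of 4.97 CPM (log2 FC -2.15, FDR = 3.29e-05). Manf, a secreted stress factor, fell from 88.4 to 28.1 CPM, and Hspa5, the chaperone BiP, fell from 1015 ± 206 to 417 ± 101 CPM. Day 1 heart 4 was the highest and day 7 heart 1 the highest of its group for all 3 genes. None of 19 tested genes of the integrated stress response was called, where 2.69% of all genes were called lower. At an FDR below 0.05, 5 were lower and 1 higher, against 22.8% and 24.2% of all genes. The share that was lower was thus near that of all genes. All 24 ribosome biogenesis genes were lower in every day 7 heart than in any day 1 heart, against 20.9% of all genes. Their log2 FC lay between -1.58 and -0.52, and 6 of them fell 2-fold. Rrp12, a ribosome assembly factor, fell from 76.5 ± 18.8 to 25.6 ± 0.818 CPM, against 25.4 CPM in sham. Of 23 hypoxia and glycolysis genes 3 fell and none rose, against 2.69% and 8.55% of all genes. Among those that fell were the glucose transporter Slc2a1 (60.2 ± 25.2 to 20.9 ± 3.07 CPM) and the lactate exporter Slc16a3 (32.6 ± 19.2 to 13 ± 3.92 CPM, log2 FC -1.32, and -0.92 without day 1 heart 2). Vegfa was at 272 and 251 CPM.

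The cardiomyocyte stress genes split. Of 18 tested, 7 fell and 1 rose. Ankrd2, a stretch-responsive ankyrin repeat protein (ENSMUSG00000025172, chr19:42036000-42045110, GRCm38, + strand), was at 24.7, 23.2, 20.4 and 7 CPM on day 1 and at 0.586, 0.386, 0.59 and 0.136 CPM on day 7 (log2 FC -5.45 with SE 0.436, FDR = 6.56e-07), near the sham mean of 0.167 CPM. Its relative Ankrd1 was at 3498 ± 932 CPM on day 1 and 2805 ± 640 CPM on day 7 (FDR = 0.409), and the overlapping groups lay above the sham range of 373 to 1159 CPM. Nppb, encoding B-type natriuretic peptide, was at 679, 816, 539 and 240 CPM on day 1 and at 315, 193, 250 and 197 CPM on day 7 (log2 FC -1.25, FDR = 0.0110), overlapping because of day 1 heart 4. Flnc, filamin C of the Z-disc, fell from 1653 ± 578 to 466 ± 65.4 CPM and Csrp3, muscle LIM protein, from 1706 ± 426 to 788 ± 69.2 CPM. Myh7, the slow myosin heavy chain of the fetal heart, went the other way: it was at 463, 575, 341 and 197 CPM on day 1 and at 640, 897, 1645 and 713 CPM on day 7, with no overlap (log2 FC 1.31 with SE 0.347, FDR = 6.90e-03). Without day 7 heart 3, the highest, its log2 FC was 0.93 (FDR = 0.0273) and no gene of the list rose 2-fold.

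**Figure D2:**
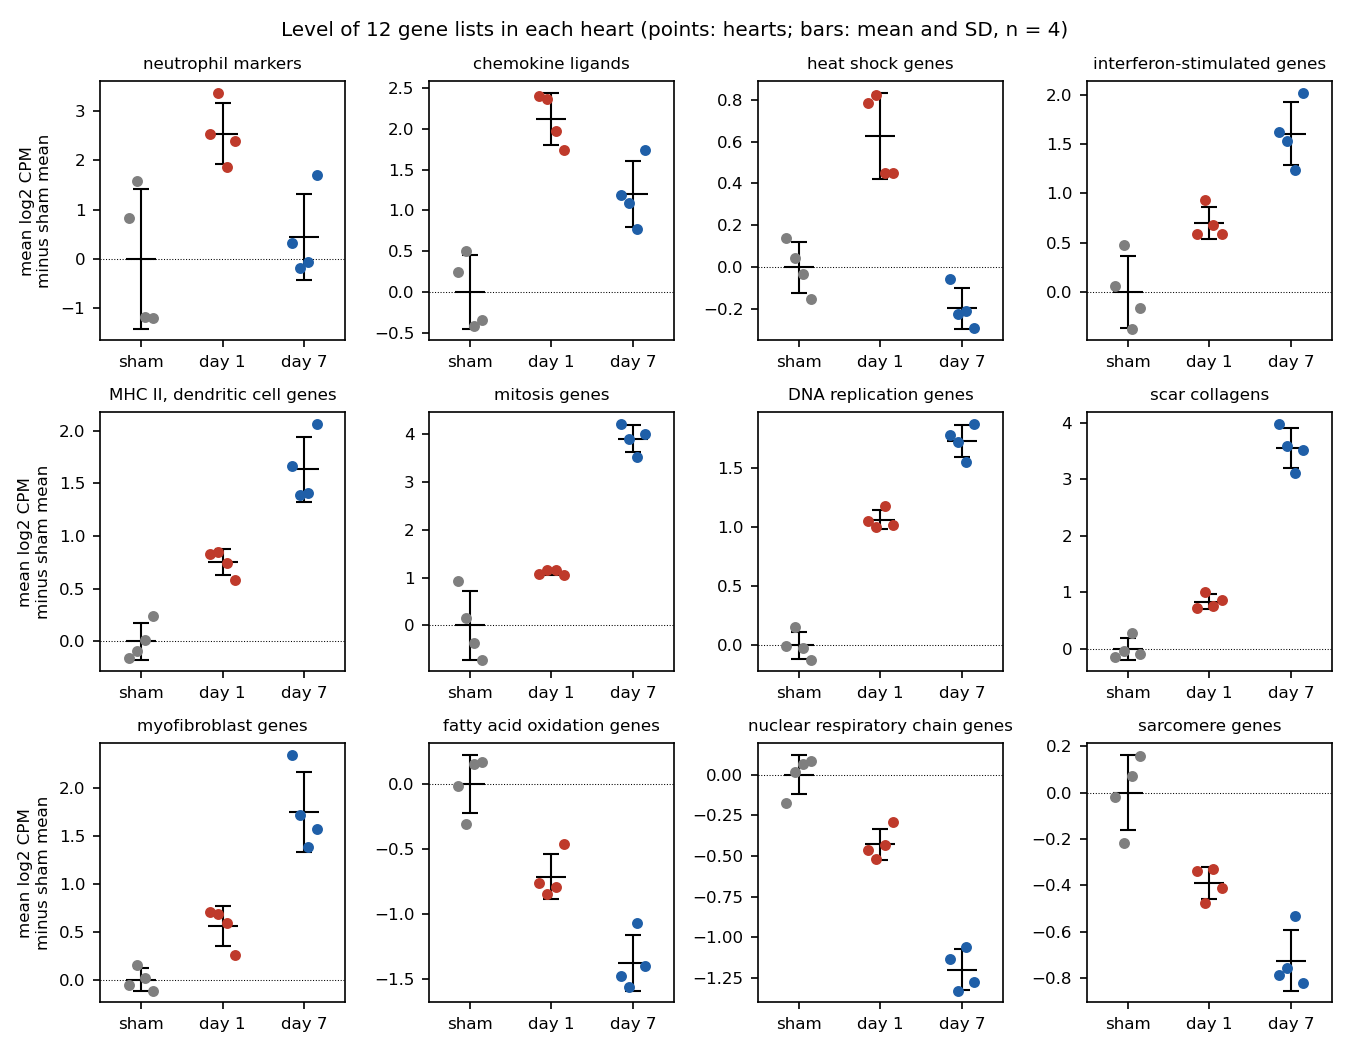
Each panel shows the mean log2 CPM of a gene list in each of 12 hearts, less its mean in sham, with group mean and SD bars (n = 4). Neutrophil, chemokine and heat shock lists peak on day 1, the mitosis, collagen, interferon and MHC class II lists are highest on day 7, and the metabolic and sarcomere lists step down at each time.

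Interferon-stimulated genes rose mostly after day 1. All 22 were tested, 11 rose, 18 were higher at an FDR below 0.05 and none was lower. Against sham, 4 were called on day 1, where 11 were higher at an FDR below 0.05, and 19 were called on day 7. The median log2 FC was 0.48 from sham to day 1 and 1.01 from day 1 to day 7. Ifit1, an antiviral protein that binds foreign RNA, was at 13.2, 12.5, 10.7 and 9.49 CPM on day 1 and at 25.4, 29.7, 20.4 and 39.2 CPM on day 7 (log2 FC 1.32 with SE 0.198, FDR = 1.12e-04). Ifi44 was at 3.34 CPM in sham, 3.38 ± 0.591 CPM on day 1 and 11.4 ± 2.24 CPM on day 7 (log2 FC 1.74, FDR = 2.09e-05). Neither gene overlapped between the times. Day 7 heart 4 was the highest heart for both Ifit1 and Cxcl9.

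The core of the interferon-stimulated response element, 2 copies of GAAA with 2 bases between them, searched in the same way, was in 11 of 16 interferon-stimulated genes with a window (68.8%) and in 3.91% of tested genes with one. The window of Ifi44 held no match. The Ifit1 window (GRCm38.p6, chr19:34640639-34640938, + strand) is shown for its 2 copies, in capitals, which read on the opposite strand.
Ifit1: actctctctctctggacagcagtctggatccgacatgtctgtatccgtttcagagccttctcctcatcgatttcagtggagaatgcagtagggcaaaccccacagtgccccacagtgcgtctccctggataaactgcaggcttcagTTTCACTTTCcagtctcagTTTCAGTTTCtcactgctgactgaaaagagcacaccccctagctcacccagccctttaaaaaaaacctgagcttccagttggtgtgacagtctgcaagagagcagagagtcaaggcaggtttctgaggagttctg

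Monocyte and macrophage genes moved in both directions. The general macrophage markers, 6 genes including Cd68 and Csf1r, summed to 276 to 364 CPM on day 1 and 376 to 593 CPM on day 7, and none of the 6 was called. Of 14 inflammatory monocyte markers, 4 fell and 2 rose, against 2.69% and 8.55% of all genes, and 13 had risen on day 1. The number that rose was 1 without day 1 heart 3 and 3 without day 1 heart 2. Arg1, which breaks down arginine, was at 66, 88.8, 19.9 and 35.6 CPM on day 1 and at 4.04, 6.99, 0.369 and 7.52 CPM on day 7, with no overlap (log2 FC -3.47 with SE 0.559, FDR = 2.01e-04). Chil3, a chitinase-like protein, fell from 24.4, 77.6, 21 and 28 CPM to 1.76, 1.51, 0.553 and 3.16 CPM, and its log2 FC of -4.42 was -3.80 without day 1 heart 2. F10, coagulation factor X, fell from 5.07 to 0.984 CPM (log2 FC -2.36, and -3.16 without day 7 heart 4). The defining surface marker Ly6c2 was at 4.72 ± 1.52 CPM on day 1 and at 2.96, 1.35, 2.03 and 7.75 CPM on day 7 and did not pass (log2 FC -0.42, FDR = 0.463), although without day 7 heart 4 it did (log2 FC -1.15, FDR = 0.0216). Plac8 was at 8.48 and 9.44 CPM. Thbs1, thrombospondin 1, rose from 92.5, 123, 50.1 and 42.8 CPM to 936, 267, 131 and 177 CPM, with a log2 FC of 2.30 that was 1.32 without day 7 heart 1.

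Genes of macrophages that take up lipid and debris rose. Of 22 tested, 7 rose and none fell 2-fold. Gpnmb, a lysosomal glycoprotein, was at 3.29, 3.82, 3.53 and 4.29 CPM on day 1 and at 53.2, 56.7, 37.9 and 25.9 CPM on day 7 (log2 FC 3.54 with SE 0.251, FDR = 2.07e-07). Trem2, a receptor for lipids, rose from 9.85 ± 2.13 to 26.4 ± 6.15 CPM, Apoe, a lipid carrier, from 287 ± 86.5 to 768 ± 199 CPM, and Ctsk, the collagen-degrading cathepsin K, from 5.03 ± 0.601 to 26.3 ± 3.24 CPM. Each of the 4 was higher in every day 7 heart than in any day 1 heart. Spp1 and Lgals3, which had risen on day 1 from 0.456 to 116 CPM and from 3.43 to 38.2 CPM, did not pass between the times, at 80.4 ± 59.2 and 45.2 ± 7.58 CPM. The 4 Spp1 values on day 7 were 159, 92.5, 40.1 and 29.9 CPM, and without day 7 heart 1 it was lower than on day 1 (log2 FC -1.11, FDR = 0.0152).

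Of 19 tested resident macrophage markers 2 rose 2-fold (4 without day 7 heart 3), near the 8.55% of all genes. At an FDR below 0.05 with no FC minimum 9 were higher and 4 lower, against 24.2% and 22.8% of all genes. Cx3cr1, the fractalkine receptor, was at 7.07, 10.3, 5.66 and 6.21 CPM on day 1 and at 43.1, 25.9, 17.8 and 31.4 CPM on day 7 (log2 FC 2.01 with SE 0.280, FDR = 6.27e-05). Igf1, a growth factor that macrophages and fibroblasts secrete, rose from 18 ± 2.89 to 53.9 ± 5.96 CPM. Lyve1, a hyaluronan receptor shared with lymphatic vessels, was lower by less than 2-fold, at 21.9 ± 3.87 and 12.4 ± 1.73 CPM (log2 FC -0.82, FDR = 2.07e-03), and Timd4, a marker of the long-lived resident cells, was at 1.85 and 1.60 CPM (FDR = 0.517).

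Antigen presentation genes rose, and lymphocyte genes rose in part. Of 19 MHC class II and dendritic cell genes 9 rose, 12 were higher at an FDR below 0.05 and none fell. Without day 7 heart 4, 5 rose. H2-Aa, the alpha chain of an MHC class II molecule, was at 39.5, 38.8, 38.7 and 33.3 CPM on day 1 and at 97.2, 77.3, 80 and 203 CPM on day 7 (log2 FC 1.61 with SE 0.300, FDR = 6.20e-04). All day 7 hearts exceeded all day 1 hearts, and day 7 heart 4 stood well above the other 3. Cd74, the invariant chain, rose from 117 to 276 CPM (log2 FC 1.24, and 0.83 without day 7 heart 4). Of 29 lymphocyte genes 25 were tested, of which 7 rose and none fell, against 8.55% and 2.69% of all genes. At an FDR below 0.05 with no FC minimum 9 were higher and none lower, against 24.2% and 22.8%. The number that rose 2-fold was 5 without day 7 heart 4 and 12 without day 1 heart 1. Ighm and Igkc, immunoglobulin heavy and light chain constant regions, rose from 7.72 ± 0.914 to 30.1 ± 12.8 CPM and from 2.12 ± 0.897 to 11.8 ± 4.44 CPM. Jchain, which joins IgM and IgA polymers in plasma cells, rose from 0.452 to 3.06 CPM (log2 FC 2.78, and 3.41 without day 1 heart 1). T cell genes were scarce: Cd3e was at 0.369 ± 0.250 and 0.780 ± 0.259 CPM and did not pass (log2 FC 1.11, FDR = 0.0558), though it did without day 1 heart 1 (log2 FC 1.44) or day 1 heart 3 (log2 FC 1.39).

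The collagen scar switched on. Of 24 scar collagen genes 23 were tested, 21 rose and the other 2 were higher by less than 2-fold. All 23 were higher in every day 7 heart than in any day 1 heart, against 23.5% of all genes. Some of them, such as Col11a1, Col9a2, Col2a1 and Col24a1, were low in sham and day 1 hearts. These passed the filter only through the day 7 hearts, so they could only be counted as higher. As a share of TPM outside the mitochondrial genome, a scale that takes gene length into account, the scar collagen genes made 0.0845% on day 1 and 0.571% on day 7. Col1a1, the main chain of type I collagen, was at 308, 409, 297 and 427 CPM on day 1 and at 5188, 2464, 1482 and 2434 CPM on day 7 (log2 FC 3.01 with SE 0.301, FDR = 4.34e-06). It had risen only to 360 CPM by day 1 from 135 CPM in sham. Day 7 heart 1 was the highest and heart 3 the lowest of its group, and no day 7 heart came near the day 1 range. Col3a1, the chain of type III collagen, showed less spread, at 659, 872, 634 and 993 CPM on day 1 and at 4284, 3537, 2862 and 4002 CPM on day 7.

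Some collagens were nearly absent on day 1. Col11a1, a fibril-nucleating chain best known from cartilage (ENSMUSG00000027966, chr3:114030540-114220718, GRCm38, + strand), was at 0.153, 0.328, 0.131 and 0.284 CPM on day 1 and at 113, 35.6, 17.2 and 20.8 CPM on day 7 (log2 FC 7.65 with SE 0.733, FDR = 2.91e-06, and 6.72 without day 7 heart 1). Col8a2, a network-forming short-chain collagen, was at 1.19, 0.477, 0.687 and 0.568 CPM on day 1 and at 39.5, 31.3, 32.1 and 36.5 CPM on day 7, with little spread on day 7 (log2 FC 5.60 with SE 0.207, FDR = 5.55e-10). Col9a2 and Col2a1, further cartilage collagens, went from 0.0714 to 5.04 CPM and from 0.0931 to 2.68 CPM. The log2 FC of Col9a2 was 6.01 (6.68 without day 1 heart 4) and that of Col2a1 4.72 (6.11 without day 1 heart 2).

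The other scar matrix genes rose with the collagens, 29 of 36 by 2-fold or more and none fell. Sfrp2, a secreted Wnt modulator (ENSMUSG00000027996, chr3:83766321-83774316, GRCm38, + strand), was at 4.67, 4.65, 4.29 and 4.92 CPM on day 1, level with its sham mean of 4.04 CPM, and at 194, 151, 185 and 205 CPM on day 7 (log2 FC 5.31 with SE 0.139, FDR = 9.11e-12). Postn, the matricellular protein periostin, rose from 78.5, 118, 79.4 and 73.5 CPM to 2092, 1638, 1311 and 1516 CPM, and Eln, elastin, from 55.0 ± 11 to 878 ± 99.0 CPM. Neither overlapped between the times. Cthrc1, a protein of collagen-secreting fibroblasts, had begun to rise on day 1, at 2.62 CPM against 0.135 CPM in sham, and reached 81.2 ± 32.8 CPM on day 7. Tnc, tenascin C, did not pass: it had risen on day 1 from 0.805 to 88.8 CPM and was at 238, 76.1, 35.6 and 63.7 CPM on day 7 (log2 FC 0.22, FDR = 0.694), in groups that overlapped, with a log2 FC of -0.60 (FDR = 0.0679) without day 7 heart 1. Dcn and Ogn, small proteoglycans of resting fibroblasts, had dipped on day 1, to 318 and 68.5 CPM from 522 and 114 CPM in sham, and rose to 669 and 191 CPM by day 7.

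Outside the lists, C1qtnf3, a secreted C1q-related protein (ENSMUSG00000058914, chr15:10952332-10980150, GRCm38, + strand), rose from 0.153, 0, 0.0327 and 0.0631 CPM to 37.3, 27.7, 21.4 and 33.2 CPM (log2 FC 8.91 with SE 0.362, FDR = 1.17e-09, and 9.70 without day 1 heart 1). Ptn, the growth factor pleiotrophin, rose from 1.77 ± 0.309 to 61.1 ± 6.52 CPM. Cemip, a hyaluronan-degrading protein, rose from 0.436 CPM to 135, 23.5, 9.63 and 11.2 CPM (log2 FC 6.72, and 5.11 without day 7 heart 1). Adamts16, a secreted metalloproteinase, had 2 counts on day 1 and 585 on day 7, a ratio of 310.6 with a 95% counting interval of 85.6 to 2571, of which day 7 heart 1 gave the most (fitted log2 FC 7.86, and 7.08 without that heart). Gm20431 had the largest fitted change (log2 FC 10.11, and 8.80 without day 7 heart 2), but that value has no measured starting level. No day 1 heart held a count, against 555 counts on day 7, a ratio of at least 196.5 against a floor of 3 counts. Gm20431 also shares 100% of its exon bases with Tmem189 and Ube2v1, and its counts cannot be assigned to it.

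**Figure D3:**
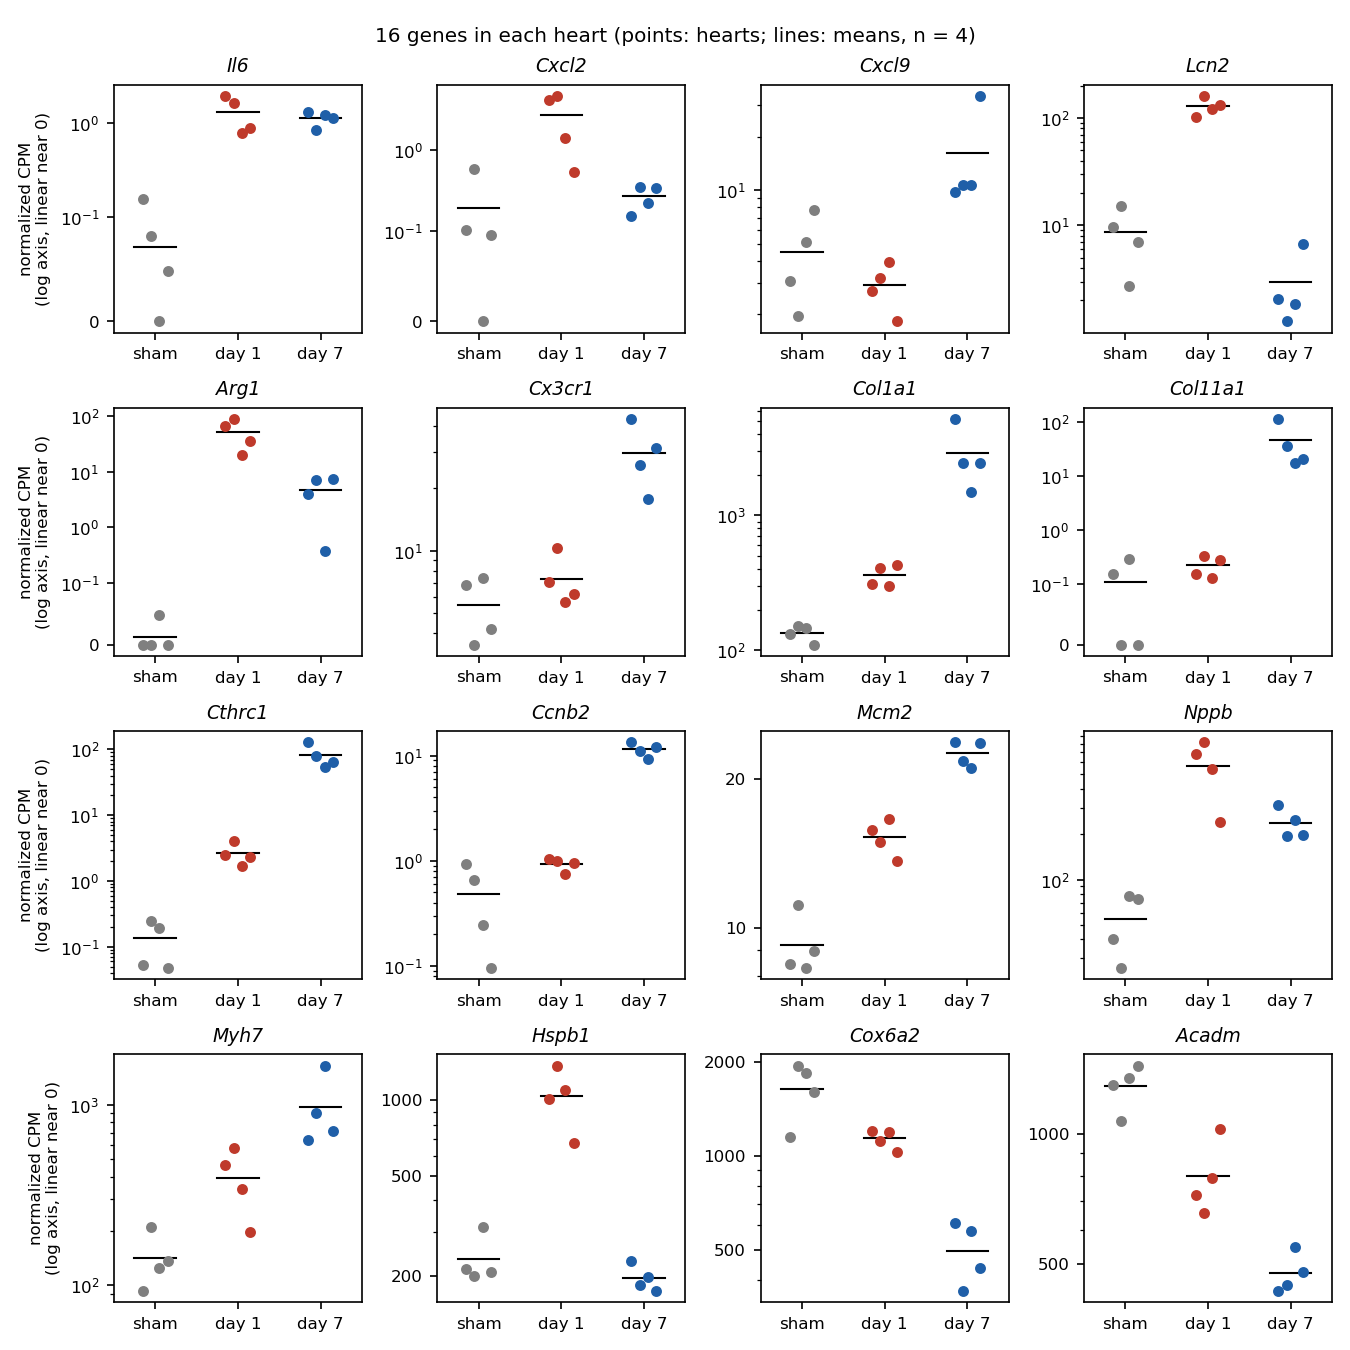
Normalized CPM of 16 genes in each sham, day 1 and day 7 heart (points) with group means (lines, n = 4), on log axes that are linear near 0. Lcn2 and Hspb1 fall back by day 7, Il6 stays up, Col11a1 and Ccnb2 are highest on day 7, and Cox6a2 and Acadm step down at each time.

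The enzymes that finish and cross-link collagen rose in part. Of 24 tested, 10 rose and none fell 2-fold. Lox, lysyl oxidase, was at 22.3, 52.5, 20.1 and 26.8 CPM on day 1 and at 357, 269, 166 and 223 CPM on day 7 (log2 FC 3.06 with SE 0.310, FDR = 4.58e-06), and P4ha3, a prolyl hydroxylase, rose from 0.505 ± 0.174 to 8.01 ± 3.11 CPM. Serpinh1, the collagen chaperone HSP47, had risen from 240 CPM in sham to 619 ± 26.6 CPM on day 1 and was at 1037, 476, 417 and 504 CPM on day 7 (FDR = 0.941). Without day 7 heart 1 Serpinh1 was lower on day 7 (log2 FC -0.41, FDR = 0.0144). Basement membrane genes rose less, 8 of 18, with a median log2 FC of 0.77 that became 0.67 when the median of each gene's exon length class was taken off. Col4a3 and Col4a4, chains of type IV collagen, had fallen on day 1 and rose past sham: Col4a3 was at 1.38, 2.3, 1.73 and 2.9 CPM on day 1 and at 10.8, 13.6, 12.2 and 10.2 CPM on day 7, against a sham mean of 4.54 CPM, while Col4a1 was higher by less than 2-fold (log2 FC 0.79, FDR = 9.50e-04).

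The summed fibroblast markers, 6 genes of which 3 are collagens, lay between 1660 and 2289 CPM on day 1 and between 6876 and 14354 CPM on day 7, but Pdgfra, the receptor that marks fibroblasts, was level at 69.7 ± 4.48 and 73.5 ± 8.41 CPM (log2 FC 0.08, FDR = 0.508). Of 24 myofibroblast genes 10 rose and none fell 2-fold. Cdh11, a fibroblast cadherin, rose from 6.11 ± 0.579 to 27.9 ± 4.95 CPM, Fap, a surface protease of activated fibroblasts, from 2.54 ± 0.261 to 12.1 ± 2.47 CPM, and Meox1, a fibroblast transcription factor, from 21.7 ± 7.45 to 65.0 ± 5.21 CPM. None of the 3 overlapped between the times. Acta2, smooth muscle actin, was at 195, 220, 169 and 100 CPM on day 1 and at 538, 251, 187 and 203 CPM on day 7, overlapped and did not pass (log2 FC 0.79, FDR = 0.0874). Tagln, another contractile gene, was called (log2 FC 1.43, FDR = 0.0137) but not without day 7 heart 1 (log2 FC 0.64, FDR = 0.0607), and 67.9% of its exon bases overlap other genes. Of 18 quiescent fibroblast genes 4 rose and 2 fell, against 8.55% and 2.69% of all genes. Tcf21, a transcription factor of resting fibroblasts, rose from 6.62 ± 0.768 to 18.5 ± 1.25 CPM.

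Ligands of the TGF-beta family did not move together. Of 23 family genes 6 rose and 2 fell (4 without day 7 heart 1), against 8.55% and 2.69% of all genes. Tgfb1 was at 50.4, 66.2, 44.5 and 39.8 CPM on day 1 and at 63.2, 47, 41.9 and 53 CPM on day 7 (log2 FC 0.03, FDR = 0.891), in both cases above the sham mean of 25.6 CPM. Tgfb3 rose from 39, 44.2, 28.6 and 23.6 CPM to 147, 99.7, 86.2 and 101 CPM, with no overlap (log2 FC 1.68 with SE 0.200, FDR = 1.71e-05). Fstl1, a secreted binding protein, rose from 174 ± 28.1 to 843 ± 165 CPM. Of 25 metalloproteinases and inhibitors 6 rose and 5 fell, or 2 without day 1 heart 2, against 8.55% and 2.69% of all genes. Mmp2, a fibroblast gelatinase, rose from 57.1 ± 10.9 to 263 ± 45.4 CPM and Mmp14, the membrane enzyme that activates it, from 43.4 ± 11.4 to 161 ± 62.8 CPM. Mmp3, stromelysin 1, fell from 19.3, 24.2, 12 and 23.7 CPM to 2.71, 2.86, 3.87 and 4.25 CPM. Timp2, the inhibitor that pairs with MMP2, rose from 98.6 ± 3.64 to 296 ± 20.8 CPM, while Timp1 fell, as given above.

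Mitosis genes rose between day 1 and day 7. All 30 mitosis genes were tested, 28 rose 2-fold and the other 2 were higher at an FDR below 0.05. All 30 were higher in every day 7 heart than in any day 1 heart, against 23.5% of all genes. Ccnb2, cyclin B2, was at 1.03, 0.985, 0.752 and 0.946 CPM on day 1 and at 13.4, 11.1, 9.37 and 12.1 CPM on day 7 (log2 FC 3.63 with SE 0.310, FDR = 1.10e-06). Mki67, encoding the proliferation antigen Ki-67, rose from 9.1, 7.94, 10.3 and 7.82 CPM to 92.9, 79, 68 and 88.8 CPM. Plk1, a mitotic kinase, rose from 1.01 ± 0.359 to 10.2 ± 2.94 CPM and Cdc20, which activates the anaphase-promoting complex, from 2.01 ± 0.499 to 14.6 ± 4.57 CPM.

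DNA replication genes rose by less. Of 30 tested, 7 rose 2-fold from day 1 to day 7 and 22 were higher at an FDR below 0.05, while 12 had risen 2-fold on day 1 against 12 of the mitosis genes. Their median log2 FC was 0.82 from sham to day 1 and 0.59 from day 1 to day 7, against 0.95 and 3.00 for the mitosis genes. Mcm2, a subunit of the replicative helicase, was at 15.3 ± 1.27 CPM on day 1 and 22.6 ± 1.35 CPM on day 7 (log2 FC 0.57, FDR = 5.16e-04), and Pcna, the sliding clamp, was level at 43.5 ± 3.32 and 41.8 ± 2.37 CPM (FDR = 0.571).

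The promoters of 3 mitosis genes are shown because most of the list holds the element known from G2 and M phase genes. The cell cycle gene homology region (TTTGAA or TTCGAA, both strands) was in 21 of 26 mitosis genes with a window (80.8%), in 6 of 26 replication genes (23.1%) and in 16.5% of tested genes with one. CCAAT boxes (both strands) were in 20 of 26 mitosis genes (76.9%), in 19 of 26 replication genes (73.1%) and in 42.2% of tested genes. Capitals mark both elements in the windows of Ccnb2 (chr9:70421505-70421804, - strand), Cdc20 (chr4:118437294-118437593, - strand) and Plk1 (chr7:122159185-122159484, + strand), all on GRCm38.p6.
Ccnb2: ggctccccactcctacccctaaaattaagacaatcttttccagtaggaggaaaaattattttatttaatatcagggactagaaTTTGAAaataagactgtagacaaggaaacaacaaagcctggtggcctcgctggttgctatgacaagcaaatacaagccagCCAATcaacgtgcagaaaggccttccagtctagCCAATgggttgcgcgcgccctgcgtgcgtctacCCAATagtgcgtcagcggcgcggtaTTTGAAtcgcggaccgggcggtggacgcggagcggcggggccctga
Cdc20: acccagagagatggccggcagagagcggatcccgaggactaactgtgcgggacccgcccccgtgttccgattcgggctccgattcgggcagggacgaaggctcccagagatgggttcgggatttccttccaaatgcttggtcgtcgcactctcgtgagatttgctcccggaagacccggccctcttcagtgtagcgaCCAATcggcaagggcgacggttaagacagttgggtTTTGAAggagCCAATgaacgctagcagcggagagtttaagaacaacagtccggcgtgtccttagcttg
Plk1: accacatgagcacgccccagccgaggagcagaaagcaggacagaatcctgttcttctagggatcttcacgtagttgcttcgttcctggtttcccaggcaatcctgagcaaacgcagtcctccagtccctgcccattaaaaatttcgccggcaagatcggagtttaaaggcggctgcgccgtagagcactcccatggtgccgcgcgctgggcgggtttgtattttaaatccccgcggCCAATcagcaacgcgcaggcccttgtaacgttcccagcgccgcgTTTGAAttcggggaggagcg

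Of 30 endothelial genes 3 rose and 1 fell 2-fold, shares near the 8.55% and 2.69% of all genes, and 16 were higher and 4 lower at an FDR below 0.05, against 24.2% and 22.8%. Aplnr, the apelin receptor of sprouting and venous endothelium, was at 27.4, 17.1, 40.6 and 36.6 CPM on day 1 and at 152, 169, 147 and 152 CPM on day 7, with no overlap (log2 FC 2.35 with SE 0.353, FDR = 1.19e-04). Cdh5, VE-cadherin, rose from 187 ± 16.6 to 376 ± 20.5 CPM (log2 FC 1.01, and 0.99, 0.95 and 0.98 without day 1 heart 1, day 1 heart 4 and day 7 heart 3), and Pecam1 was higher by less than 2-fold, at 158 ± 9.83 and 260 ± 5.83 CPM (log2 FC 0.72). Flt1, a VEGF receptor, was instead lower by less than 2-fold (150 ± 6.90 to 109 ± 9.02 CPM, FDR = 8.91e-04). The endothelial gene that fell 2-fold was Selp, the adhesion molecule P-selectin, from 6.04, 12.1, 3.89 and 5.08 CPM to 2.31, 2.43, 2.51 and 3.81 CPM (log2 FC -1.29, FDR = 0.0162), which did not hold without day 1 heart 2 (log2 FC -0.86, FDR = 0.0739). Of 14 lymphatic and mural genes 1 rose and 1 fell 2-fold, against 8.55% and 2.69% of all genes, and the list median was 0.27. The gene that rose was Rgs5, a pericyte gene, from 286 ± 27.7 to 622 ± 96.5 CPM. Pdpn, podoplanin, fell from 30.4 ± 7.21 to 13.4 ± 1.81 CPM.

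Nuclear transcripts for energy metabolism kept falling. All 37 nuclear genes of the respiratory chain were lower at an FDR below 0.05, against 22.8% of all genes, and 7 fell 2-fold. All 37 were also lower in every day 7 heart than in any day 1 heart, against 20.9% of all genes. Their median log2 FC was -0.69 from day 1 to day 7 and -0.45 from sham to day 1, and their share of TPM outside the mitochondrial genome went from 8.0% to 5.70%. Cox7a1, a heart and muscle subunit of cytochrome c oxidase, was at 356, 349, 353 and 452 CPM on day 1 and at 172, 127, 181 and 133 CPM on day 7 (log2 FC -1.30 with SE 0.129, FDR = 4.08e-06). Cox6a2, a second such subunit, fell from 1140 ± 81.8 to 497 ± 114 CPM, and the sham mean was 1643 CPM. Slc25a4, which exchanges ATP and ADP across the mitochondrial membrane, fell from 3952 ± 439 to 1955 ± 161 CPM (log2 FC -1.02, and -0.94, -0.97 and -0.99 without day 1 heart 4, day 7 heart 2 and day 7 heart 4). Many of these are short genes: the 16 respiratory chain genes in the shortest of the 10 exon length classes had a median of -0.90 and the other 21 a median of -0.55, against -0.23 for all protein-coding genes in that class. The median of the 37 was -0.60 with the median of each gene's length class taken off. The summed cardiomyocyte markers, given above, were lower on day 7 as well, and their part in these decreases was not tested.

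The genes of the mitochondrial genome that were tested did not follow. These were 7 protein-coding genes: mt-Co1, mt-Cytb, mt-Nd1, mt-Nd2, mt-Nd4, mt-Nd5 and mt-Nd6. The genome's other protein-coding genes were not among the genes tested. The 7 had fallen from sham to day 1, with a median log2 FC of -0.84. They then lay between -0.12 and 0.14 from day 1 to day 7, with none at an FDR below 0.05. mt-Co1, a subunit of the same oxidase, was at 60326 CPM on day 1 and 58838 CPM on day 7, against 103047 CPM in sham.

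**Figure D4:**
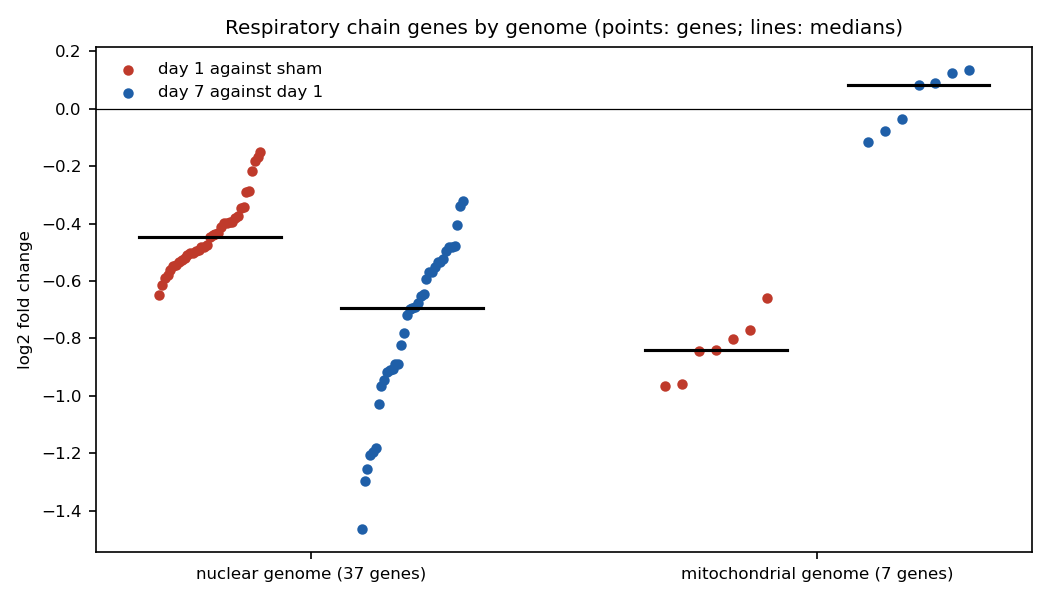
Log2 fold change of each respiratory chain gene (points) with medians (bars), for day 1 against sham and day 7 against day 1, by the genome that encodes it. The 37 nuclear genes are below 0 in both comparisons, with medians of -0.45 and -0.69, while the 7 mitochondrial genes tested have medians of -0.84 and 0.082.

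Fuel oxidation genes fell with the nuclear respiratory chain. Of 26 fatty acid oxidation genes 22 were lower at an FDR below 0.05, 3 of them by 2-fold, and none was higher. The number that fell 2-fold was 1 without day 7 heart 2 and 6 without day 7 heart 3. Acadm, the medium-chain dehydrogenase, was at 720, 655, 790 and 1023 CPM on day 1 and at 433, 446, 548 and 480 CPM on day 7, against a sham mean of 1286 CPM (log2 FC -0.74 with SE 0.137, FDR = 5.75e-04). Of 30 genes of the citric acid cycle and of ketone and amino acid breakdown 27 were lower at an FDR below 0.05, none by 2-fold. Sdha, a subunit of succinate dehydrogenase, was at 1225, 1178, 1297 and 1494 CPM on day 1 and at 716, 639, 812 and 688 CPM on day 7. Of 20 cardiac transcriptional regulators 3 fell: Klf15, a regulator of fuel use (38.5 ± 4.46 to 18.4 ± 5.10 CPM), Esrra, the estrogen-related receptor that drives mitochondrial genes (180 ± 20.8 to 89.6 ± 12.4 CPM), and Hand2 (58.4 ± 4.94 to 29.1 ± 2.56 CPM). All 3 lay close to the 2-fold limit, and without day 7 heart 4 none passed it, with log2 FC of -0.95, -0.98 and -0.98. Esrra was also under 2-fold without day 1 heart 3 or 4 or day 7 heart 2, and Hand2 without day 1 heart 2 or 4 or day 7 heart 2. Ppargc1a, the coactivator of Esrra, was at 71.9 ± 7.93 and 60.0 ± 9.51 CPM and did not pass (log2 FC -0.26, FDR = 0.104) except without day 1 heart 2 (log2 FC -0.34).

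Contractile and electrical genes moved less by list median, at -0.36 and -0.40, than the nuclear respiratory chain, at -0.69. Of 20 sarcomere genes 1 fell 2-fold, near the 2.69% of all genes. At an FDR below 0.05, 11 were lower, against 22.8% of all genes. The gene called was Des, desmin of the intermediate filaments, which had been raised on day 1 (3838, 4333, 4186 and 2948 CPM) and was at 1745, 1982, 2009 and 1703 CPM on day 7, near its sham mean of 2280 CPM. Its log2 FC of -1.04 was -0.98 without day 1 heart 2 and -0.99 without day 1 heart 3. Myh6, the adult myosin heavy chain, was at 21236, 14756, 19854 and 23027 CPM on day 1 and at 15976, 13390, 17779 and 15534 CPM on day 7, overlapped and did not pass (log2 FC -0.33, FDR = 0.0627), against a sham mean of 36099 CPM. It was past the threshold without day 1 heart 2 (log2 FC -0.45, FDR = 7.24e-03) or without day 7 heart 3 (log2 FC -0.40, FDR = 0.0414). None of 26 excitation and calcium genes was called, where 2.69% of all genes were called lower. At an FDR below 0.05, 15 were lower, against 22.8% of all genes. Atp2a2, the calcium pump of the sarcoplasmic reticulum, was lower by less than 2-fold, at 12882 ± 2515 and 7992 ± 841 CPM (log2 FC -0.69, FDR = 1.14e-03), and Kcnv2, a potassium channel subunit that had fallen from 22.5 to 2.92 CPM by day 1, was at 1.77 CPM on day 7 (FDR = 0.102).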

How the data were processed

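Total RNA of 12 mouse hearts (4 sham, 4 day 1 AMI, 4 day 7 AMI) was sequenced as 150-bp paired-end reads from random-primed cDNA. According to the submitters' processing notes and the methods, the authors used CASAVA 1.8, trimmed the reads, aligned them with STAR 2.4.0j to mm10 (GRCm38) and computed TPM with RSEM. The authors also deposited a table of whole-number counts per gene, unnormalized. The tool that made the counts, and whether it used strand, are not given in the sources used here. Group and replicate number came from the sample titles.

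Genes were filtered by expression within groups (filterByExpr), normalized by TMM and tested with edgeR 4.0.16 in R 4.3.3, by the quasi-likelihood test over all 12 libraries with Benjamini-Hochberg adjustment over 15306 genes. The p-values rest on the spread between hearts of the same group, estimated jointly over the sham, day 1 and day 7 hearts (n = 4 each). On simulated counts with 15129 genes for day 7 against day 1, the test recovered 82% of 100 genes changed by a log2 FC of 1 and 99% of 100 changed by 2. Recovery there meant an FDR below 0.05 in the right direction, without the FC minimum used for DEGs. The changed genes were drawn from well-counted genes, and the spread was set rather than estimated from these hearts. Recovery of genes with few counts or uneven groups was not tested. No 2 libraries of the same group agreed within sampling noise, so all 12 were kept. Alternatives were other size factors, no TMM, other filters, the 8 AMI libraries alone, a replicate block, DESeq2 1.42.0, limma 3.58.1 on log2 TPM with a pseudocount of 1 or 0.1, and each heart left out in turn.

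The gene lists, and the choice of this comparison, were made with earlier results of these data known. Genes named are list members, the 15 protein-coding genes with the largest log2 FC in each direction among DEGs with at least 1 CPM in the higher group and no overlap, and the 10 with the largest change in mean CPM in each direction. Cell type markers, mitochondrial and noncoding genes are named beside these. The examples within lists were chosen after their values were seen. Lists share some members, such as Lcn2, Mmp9 and Timp1. List medians and counts are descriptions with no test. They include genes that passed the filter through the day 1 or the day 7 hearts alone, such as Cxcl3 and Col11a1. Such genes could differ in a single direction only. Where a group held 1 to 3 counts of a gene, the ratio of summed counts is given with an exact 95% interval that covers counting error only. Where it held none, the ratio is a lower bound against a floor of 3 counts. Coordinates are from GENCODE M21 (GRCm38), where 53620 of 53801 identifiers matched, and promoter sequences are from RefSeq (GRCm38.p6). Some genes of the lists are not reported here by name.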

Additional observations from a re-analysis of the deposited data

Results flagged for a closer look

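In 368 sets of 4 hearts (36 lists and 148 genes, on day 1 and on day 7), the gap between the highest or lowest heart and its nearest neighbour, as a share of the range, passed Dixon's 95% critical value for 4 samples in 31, or 8.42%, where chance gives about 1 in 20. Many of these genes are members of the same lists and are not independent.

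On day 7, heart 4 was highest and apart for Cxcl9 (0.958), Ngp (0.949), S100a8 (0.942), Saa3 (0.938), F10 (0.900), Selp (0.868), Lcn2 (0.856), H2-Aa (0.842) and Cxcr2 (0.836). Heart 1 was highest and apart for Tagln (0.892), Cemip (0.890), Meox1 (0.882), Serpinh1 (0.859), Manf (0.855), Hspa5 (0.849) and Thbs1 (0.831). Heart 2 was so for Gm20431 (0.850), and heart 3 for the mean level of excitation and calcium genes (0.916).

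On day 1, heart 4 was highest and apart for Ngp (1), Cox7a1 (0.933), Slc25a4 (0.916), Tnnt2 (0.913) and Manf (0.849), and lowest for H2-Aa (0.860) and Cxcl1 (0.839). Heart 2 was highest and apart for Chil3 (0.876), Postn (0.869) and Mmp14 (0.846) and for the mean level of collagen-modifying enzymes (0.874), and lowest for that of cardiac transcriptional regulators (0.863). Heart 3 was lowest for Ccl11 (0.852). The causes of these differences were not tested.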

How the results depend on the processing

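With no FC minimum 3701 genes were higher and 3496 lower, and limma on log2 TPM called 130 or 208 lower with a pseudocount of 1 or 0.1, against 411. With one heart left out, 1239 to 1407 genes rose and 356 to 478 fell. The replicate numbers did not pair the hearts, since correlations of same-numbered hearts ran from -0.112 to 0.149, and the fit with a replicate block gave 1304 higher and 392 lower.

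List medians kept their sign under every alternative run. Without a filter the median of chemokine ligands was -0.51, and at 1 CPM or more in 4 libraries it was -0.87, with acute cytokines at -0.30. Without TMM, basement membrane genes were at 0.90, lymphatic and mural genes at 0.39 and cardiac regulators at -0.19. In limma with a pseudocount of 1 and then 0.1, medians were -0.41 and -0.42 for heat shock, -0.42 and -0.45 for ribosome biogenesis, 1.05 and 1.11 for basement membrane, 0.46 and 0.49 for quiescent fibroblast, 0.74 and 0.81 for DNA replication, 0.61 and 0.63 for endothelial, 0.40 and 0.51 for lymphatic and mural, -0.13 and -0.13 for sarcomere, -0.17 and -0.18 for excitation, -0.35 and -0.35 for fatty acid oxidation, -0.27 and -0.27 for citric acid cycle, -0.47 and -0.47 for respiratory chain and -0.074 and -0.078 for cardiac regulator genes. The median log2 FC of integrated stress response genes was -0.0535 and -0.0610 in these fits. With a pseudocount of 1 neutrophil markers were at -0.99 and mitosis genes at 2.13, and with 0.1 lipid-associated macrophage genes were at 0.90 and metalloproteinases at 0.48. Taking off the median of each exon length class, an alternative chosen after seeing the data, gave 0.67 for basement membrane and 0.17 for lymphatic and mural genes. With one heart left out, medians ran from -1.46 to -0.79 for chemokine ligands (without day 7 heart 4 and day 1 heart 4), from -2.74 to -1.53 for neutrophil markers (without day 7 heart 4 and day 1 heart 2), from -1.26 to -0.33 for acute cytokines (without day 7 heart 1 and day 1 heart 2), from -0.99 to -0.60 for STAT3 and acute-phase genes and from 0.74 to 0.86 for basement membrane genes. The causes of these shifts were not tested.

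Among 148 genes named, Saa3 alone changed direction at an FDR below 0.05, with a range from -2.55 without day 7 heart 4 to 0.59 without day 7 heart 1. Other changes of side of the FDR threshold touched 11 genes that lost it and 11 that gained it in at least 1 alternative. Depth limits genes under about 1 CPM, such as Cxcl3 on day 7.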

Other observations

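Of 1003 noncoding genes tested, 106 were higher (10.6%) and 25 lower (2.49%) on day 7 than on day 1, shares near the 8.55% and 2.69% of all genes. The genes named here were chosen after their values were seen. Dnm3os, a host transcript of microRNAs within the Dnm3 locus, was at 4.51, 3.91, 3.37 and 3.85 CPM on day 1 and at 23.5, 23.9, 15.6 and 19.8 CPM on day 7 (log2 FC 2.41 with SE 0.195, edgeR FDR = 7.07e-07). Meg3, an imprinted long noncoding RNA, rose from 17.9 ± 2.72 to 85.5 ± 23.7 CPM, having been at 14.2 CPM in sham. Mirt1 took the opposite course, from 0.410 CPM in sham to 1.23 CPM on day 1 and 0.379 CPM on day 7 (log2 FC -1.69, FDR = 0.0134).

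Markers of the heart's outer layer rose in part. Of 7 epicardial and mesothelial markers 4 were called higher. Upk3b was at 2.36 ± 1.49 CPM on day 1 and 8.03 ± 1.03 CPM on day 7 (log2 FC 1.78), and Wt1, an epicardial transcription factor, was at 4.03 ± 0.722 and 9.29 ± 1.69 CPM (log2 FC 1.21), both with no overlap. The keratins Krt8 and Krt19 were lower in every day 7 heart but did not pass (FDR = 0.0553 and 0.0516). The 7 markers together summed to 11.1 to 34.1 CPM on day 1 and 28.1 to 40.1 CPM on day 7. No mast cell marker of 5 was called, although the 5 together summed to 7.82 to 21.6 CPM on day 1 and 22.6 to 28.9 CPM on day 7. Of 5 lung epithelium markers 1 was tested, and the list summed to 0.115 to 0.418 CPM on day 1 and 0.773 to 7.53 CPM on day 7. Of 16 circadian clock genes 2 were called higher and none lower, near the 8.55% and 2.69% of all genes. Their median log2 FC was -0.27, with 12 of the 16 below 0. The number called higher was 1 without day 1 heart 1 or 3 or day 7 heart 1 or 4, and 1 was called lower without day 1 heart 4 or day 7 heart 3. The median was -0.04 without day 7 heart 1 and -0.58 without day 7 heart 3.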
